A study of Rattus norvegicus and Mus musculus with 22 samples.

Results

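Activator protein 1 (AP-1) is a family of dimeric transcription factors built from basic leucine zipper proteins. FOS proteins pair with JUN proteins to bind the AP-1 site, while ATF3 and the small MAF protein MAFF belong to neighbouring branches of the same leucine zipper class. Many of these genes are immediate early genes, transcribed within minutes of a stimulus without new protein synthesis, and cAMP is one such stimulus: it activates protein kinase A, which phosphorylates CREB, and CREB then binds the cAMP response element (CRE). In pancreatic beta cells, cAMP is raised by incretin hormones, and in hepatocytes by glucagon.

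The 9 members described here are Fos, Fosb, Fosl1, Fosl2, Jun, Junb, Jund, Atf3 and Maff, matched by gene symbol. The list was chosen with earlier results of these data known. All 9 were found among the 24537 genes of each mouse table of repeated samples, the 17421 genes of the repeated INS-1 table and the 23360 rows of the knockout table. Fosb was not analysed in the other 2 rat tables, which gave values for 8 members among 17032 rows.

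The series holds 22 RNA-seq libraries in 16 groups and 6 tables. Forskolin, a plant compound that activates adenylyl cyclase and so raises cAMP, was given at 10 µM for 2 h to each forskolin group, and the controls had no treatment named in the labels. The replicated groups, with 2 libraries each, were cultured islets of wild-type black6 mice with and without forskolin, cultured hepatocytes of wild-type black6 mice with and without forskolin, and INS-1 cells, a rat insulinoma line that models beta cells, with and without forskolin. The other groups had 1 library each. They were islets of CRTC2KO mice with and without forskolin (CRTC2 is a CREB coactivator), beside wild-type islets with and without forskolin in the same table. A second INS-1 experiment had JQ1 at 1 µM for 4 h with forskolin, A-485 at 10 µM for 4 h with forskolin, forskolin alone, and a control. JQ1 blocks the bromodomains of BET proteins, and A-485 blocks the acetyltransferase activity of p300 and CBP. AR42J cells, a rat pancreatic line of acinar origin, carried NeuroD1, a basic helix-loop-helix factor of endocrine cells, or GFP, each with and without forskolin. Animal age, how the knockout was made beyond the label "whole body", the construct that drove NeuroD1 or GFP, and whether a line was 1 clone are not given in the sources used here. Whether the replicates were independent animals or cultures is not stated, and a p-value here reflects the spread among the libraries alone, which may be technical.

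Promoter sequence was available from RefSeq (rat build GRCr8) for 6 of the 9 members: Fosb, Fosl1, Fosl2, Junb, Jund and Maff. The 250 bases before the annotated start were searched on both strands for the full CRE, TGACGTCA, for its shorter core, TGACG, which lies within each full site on both strands, and for the AP-1 site, TGANTCA. The full CRE was found in 2 of the 6, Maff and Jund, against 1.59% of 33469 rat promoters of the same length. The core was found in 4 of the 6, against 18.2% of all promoters, and the AP-1 site in 0 of the 6, against 6.34%. These 4 promoters are shown because they carry the sites, with full CREs and cores in capitals and each read 5′ to 3′ on the gene's strand.
Maff (chr7:112792537-112792786, plus strand): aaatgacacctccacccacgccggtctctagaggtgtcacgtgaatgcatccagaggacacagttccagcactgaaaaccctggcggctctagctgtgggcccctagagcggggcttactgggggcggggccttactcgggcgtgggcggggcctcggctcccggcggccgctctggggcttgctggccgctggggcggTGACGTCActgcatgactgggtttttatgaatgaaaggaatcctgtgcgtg
Jund (chr16:18769772-18770021, minus strand): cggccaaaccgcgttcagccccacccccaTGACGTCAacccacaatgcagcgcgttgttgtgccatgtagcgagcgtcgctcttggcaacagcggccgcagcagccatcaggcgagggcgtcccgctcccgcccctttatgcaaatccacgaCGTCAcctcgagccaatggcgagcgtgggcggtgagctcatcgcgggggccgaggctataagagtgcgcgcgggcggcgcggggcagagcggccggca
Junb (chr19:40080876-40081125, plus strand): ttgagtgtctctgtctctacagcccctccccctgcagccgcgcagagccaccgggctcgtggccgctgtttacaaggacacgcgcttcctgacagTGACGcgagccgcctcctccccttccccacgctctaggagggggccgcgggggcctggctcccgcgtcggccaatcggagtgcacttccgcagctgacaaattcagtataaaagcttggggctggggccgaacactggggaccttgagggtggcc
Fosl1 (chr1:212183635-212183884, plus strand): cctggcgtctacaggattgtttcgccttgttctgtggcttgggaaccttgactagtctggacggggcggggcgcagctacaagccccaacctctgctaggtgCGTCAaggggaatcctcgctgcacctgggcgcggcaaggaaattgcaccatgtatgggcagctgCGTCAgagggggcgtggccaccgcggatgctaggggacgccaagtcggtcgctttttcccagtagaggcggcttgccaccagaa
The full CRE lay 51 to 44 bases before the start of Maff and 221 to 214 bases before the start of Jund. Jund had a further core 98 to 94 bases before its start. Junb had 1 core, 155 to 151 bases before its start, and Fosl1 had a core 148 to 144 and another 84 to 80 bases before its start. In the windows of Fosb and Fosl2 none of the 3 motifs was found. A match describes these letters in this window and says nothing of binding.

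Labels and depth were checked first. The replicated libraries had 1.95 to 6.20 M (mega) counted reads where the file headers give a total, and the steps of the low FPKM values gave approximate depths from 0.589 M reads (knockout islets with forskolin) to 5.62 M reads (knockout islets without). Beta cell markers were present in both islet tables and the INS-1 tables, 12 of 12 hepatocyte markers in hepatocytes and 9 of 9 acinar markers in AR42J cells. Crtc2 was lower but not absent in the libraries labelled knockout, at 9.58 FPKM with forskolin and 7.77 FPKM without, against 13.9 and 18.7 FPKM in the wild-type libraries. Neurod1 reached 3834 FPKM with forskolin and 3323 FPKM without in AR42J cells carrying NeuroD1, against 5.67 and 3.44 FPKM in cells carrying GFP. In the hepatocyte table, the command in the header assigns the 4 columns to groups in another order than the column names do, and this bears on every hepatocyte value below.

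In wild-type mouse islets, 8 of the 9 members rose with forskolin, against 1.72% of 13656 genes that rose and 0.242% that fell (limma, adjusted p under 0.05 over all genes). Fosl2 rose more than any other gene tested in that table, and Fos ranked 6th by the size of its rise. Jund alone did not pass the test. The values are regularised log2 expression, a scale on which differences of low genes are shrunk, so folds read from it are smaller than those of the authors' deposited table. The median log2 change was 2.61 over the 9 members and 0.01 over all genes. The authors' deposited table also called 8 of the 9 up, against 2.83% of 17053 genes up and 0.369% down.

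Among the FOS genes, which need a partner to bind DNA, Fosl2 (FRA2) stood at 10.18 and 10.87 log2 in forskolin islets, against 6.72 and 6.63 in control islets. Its log2 difference was 3.85 with a standard error (SE) of 0.28 (limma, adjusted p = 0.00222). Fos, the founding member, stood at 8.64 and 9.80 log2 in forskolin islets, against 5.50 and 5.75 in control islets, a difference of 3.60 ± 0.37 (SE, limma, adjusted p = 0.00486). Both forskolin libraries lay far above both controls for these genes. Fosb, which encodes FOSB and its truncated form, had 6.46 and 7.72 log2 with forskolin, against 4.30 and 4.67 in controls, and rose by 2.61 ± 0.38 (SE, limma, adjusted p = 0.0170). Fosl1 (FRA1) had 5.24 and 5.94 log2 with forskolin, against 3.97 and 4.27 in controls, and rose by 1.46 ± 0.25 (SE, limma, adjusted p = 0.0342). The groups did not overlap for any of these FOS genes.

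Among the JUN genes, Junb had 8.91 and 10.08 log2 in forskolin islets, against 6.73 and 6.53 in control islets, and rose by 2.87 ± 0.37 (SE, limma, adjusted p = 0.0105). JUNB is often described as a weaker activator than JUN. Jun itself had 8.22 and 9.05 log2 with forskolin, against 6.77 and 7.07 in controls, and rose by 1.71 ± 0.31 (SE, limma, adjusted p = 0.0389). That call was lost without either control library, at adjusted p = 0.165 without control 1 and 0.0505 without control 2 (limma), while its log2 difference stayed between 1.56 and 1.86. Jund, the JUN gene that most tissues express without a stimulus, had 7.80 and 8.57 log2 with forskolin, against 8.03 and 7.79 in controls. These groups overlapped, and the difference of 0.28 ± 0.30 missed the threshold (SE, limma, adjusted p = 0.706).

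Atf3, a stress-inducible gene whose homodimer represses transcription, had 6.58 and 6.83 log2 in forskolin islets, against 4.84 and 4.86 in control islets, and rose by 1.85 ± 0.19 (SE, limma, adjusted p = 0.00490). Maff, a small MAF that lacks an activation domain and dimerises with CNC and other zipper proteins, had 8.40 and 9.30 log2 with forskolin, against 6.24 and 5.85 in controls, and rose by 2.81 ± 0.33 (SE, limma, adjusted p = 0.00755). In both genes all forskolin values lay above all control values. Without a variance trend in the limma fit, 4 of the 8 islet calls ended, at adjusted p = 0.0522 for Junb, 0.0764 for Fosb, 0.0857 for Jun and 0.0933 for Fosl1, and with no filter on low values Jun was at adjusted p = 0.0513.

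**Figure D1:**
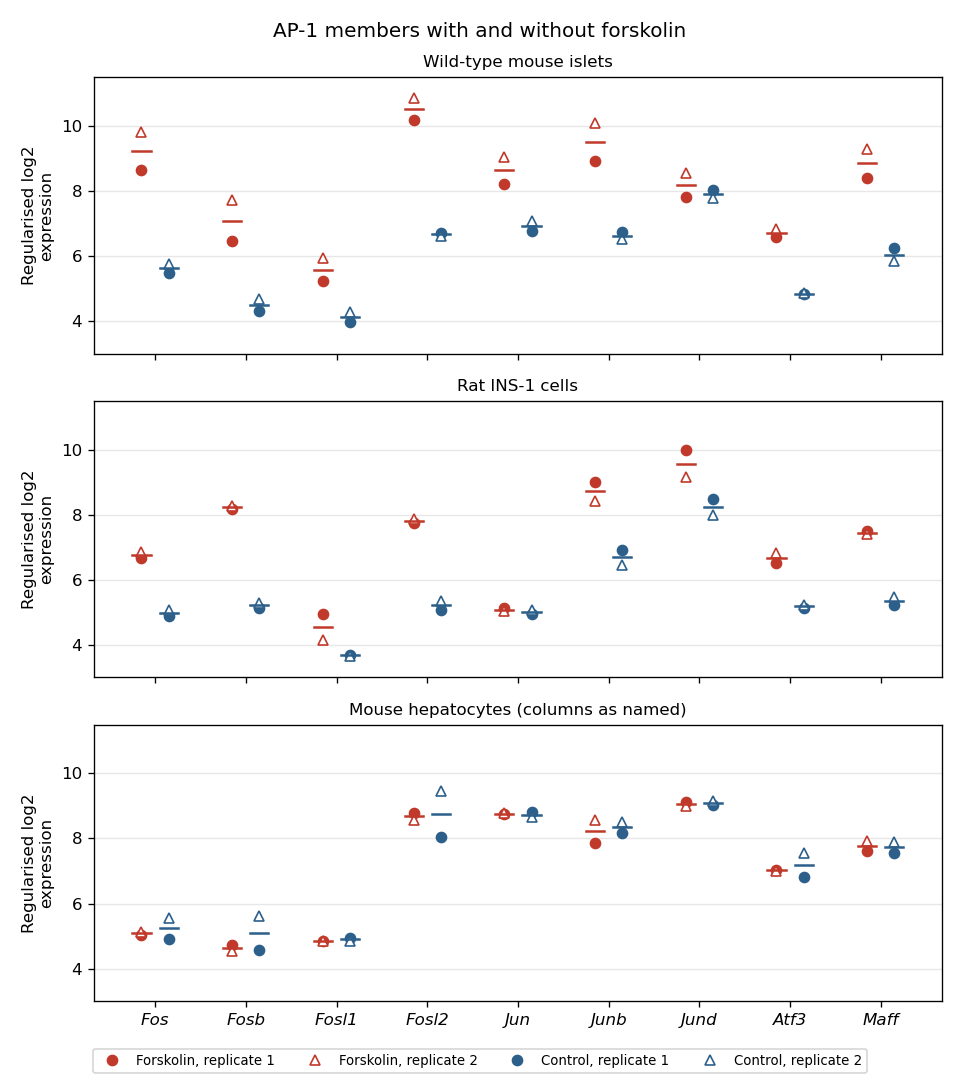
Regularised log2 expression of the 9 members (y axis) in each library of the 3 replicated tables, forskolin in red left of control in blue; circles are replicate 1, triangles replicate 2 and short lines the group means. In islets 8 of 9 members and in INS-1 cells 8 of 9 members have both forskolin points above both control points. In hepatocytes, with columns as named, none has. The share of all genes separated in this way was not computed, so these counts only describe the points drawn.

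The forskolin difference of every member was larger in islet pair 2 than in pair 1 (9 of 9), with a median of 3.05 log2 in pair 2 and 2.15 log2 in pair 1. Over 13656 genes the median was -0.0013 log2 in pair 2 and 0.010 log2 in pair 1. The share of all genes with a larger difference in pair 2 was not computed. The 2 forskolin islet libraries also differed in markers of other cells. The summed linear level of 12 hepatocyte markers, none of them at 0, was 9983 and 4016 in forskolin islets, against 4224 and 4109 in control islets. The sum of 10 acinar markers, with Amy2a3, Amy2a5 and Prss1 at 0, was 1883 and 6981 with forskolin, against 2067 and 4170 in controls. Heat shock genes summed to 2393 and 2891 with forskolin, against 1316 and 1529 in controls, and 1 of 8 rose. The part of these cells and of stress in the members' changes was not tested, and in such bulk samples fewer cells of a type and less RNA per cell cannot be told apart. Without control 1, control 2, forskolin 1 or forskolin 2, the number of genes that rose was 123, 114, 808 or 1879, so the background share moved with single libraries, while 7 to 8 members were called in each of these fits.

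Few genes around the family passed the test in islets. Of 13 tested leucine zipper partners, 1 rose, Bach1, a repressor that dimerises with small MAF proteins. It had 8.18 and 8.36 log2 with forskolin, against 6.98 and 7.08 in controls. Of 20 genes of the MAP kinase and SRF route that commonly induces FOS, 0 passed. Of 20 tested genes often described as AP-1 targets, 1 rose, Cdkn1a, which encodes the cell cycle inhibitor p21, by 1.60 ± 0.28 log2 (SE, limma, adjusted p = 0.0347). The median log2 change of the tested targets was 0.08, near the 0.01 over all genes. The authors' deposited table called 3 of 17 partners, 1 of 20 upstream genes and 2 of 25 targets up, against 2.83% of all genes. In simulated islet data the fit called 11 of 50 genes given a log2 rise of 1, so a missed call does not show that a gene stayed unchanged.

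In INS-1 cells, 8 of the 9 members rose with forskolin, against 3.07% of 10344 genes that rose and 1.24% that fell (limma). The member outside the calls was not the same as in islets: Jun missed the threshold, while Jund rose. Fosb changed most among the members and ranked 3rd among all genes by the size of its rise. The median log2 change of the 9 members was 1.79, against 0.0035 over all genes. All 8 were called up in the authors' deposited table too, against 2.70% of 11979 genes up and 0.902% down.

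Fosb stood at 8.17 and 8.27 log2 in forskolin INS-1 cells, against 5.15 and 5.30 in control cells, a difference of 2.998 ± 0.131 (SE, limma, adjusted p = 5.94e-07). Fosl2 had 7.74 and 7.87 log2 with forskolin, against 5.08 and 5.35 in controls, and rose by 2.59 ± 0.14 (SE, limma, adjusted p = 2.66e-06). Fos had 6.68 and 6.86 log2 with forskolin, against 4.90 and 5.06 in controls, and rose by 1.79 ± 0.13 (SE, limma, adjusted p = 1.28e-05). In each of these 3 genes both forskolin libraries lay well above both controls. Fosl1 was less even, with 4.95 and 4.16 log2 with forskolin, against 3.69 and 3.67 in controls, and rose by 0.88 ± 0.19 (SE, limma, adjusted p = 0.0232).

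Junb had 9.01 and 8.43 log2 in forskolin INS-1 cells, against 6.92 and 6.45 in control cells, and rose by 2.03 ± 0.20 (SE, limma, adjusted p = 0.000166). Jund had 9.99 and 9.15 log2 with forskolin, against 8.49 and 7.99 in controls. It rose by 1.33 ± 0.25 (SE, limma, adjusted p = 0.0104). Jun had 5.13 and 5.03 log2 with forskolin, against 4.94 and 5.06 in controls. The Jun groups overlapped, and its difference of 0.08 ± 0.11 missed the threshold (SE, limma, adjusted p = 0.775).

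Maff had 7.49 and 7.41 log2 in forskolin INS-1 cells, against 5.24 and 5.49 in control cells, and rose by 2.09 ± 0.14 (SE, limma, adjusted p = 5.74e-06). Atf3 had 6.53 and 6.81 log2 with forskolin, against 5.14 and 5.24 in controls, and rose by 1.48 ± 0.14 (SE, limma, adjusted p = 7.14e-05). Without a variance trend the calls of Jund (adjusted p = 0.110, limma) and Fosl1 (0.170) ended. Without control 1, 197 genes rose and 65 fell in all, and without control 2 or forskolin 1 the number that fell was 61 or 36, while 8 members were called in each of these fits.

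Around the family in INS-1 cells, 1 of 11 tested zipper partners rose, Mafk, another small MAF, by 0.84 ± 0.15 log2 (SE, limma, adjusted p = 0.00709). None of 18 tested genes of the MAP kinase and SRF route passed, while the authors' deposited table called 1 of 18 up, against 2.70% of all genes. Of 11 tested target genes 5 rose, among them the cyclin D1 gene Ccnd1, by 1.90 ± 0.34 log2, and the growth factor genes Hbegf, by 1.59 ± 0.16 log2, and Vegfa, by 1.11 ± 0.15 log2 (SE, limma). Cdkn1a rose by 0.79 ± 0.20 log2 (SE, limma, adjusted p = 0.0449), so it was called in both islets and INS-1 cells. Of 6 endothelial markers, Cdh5 and Emcn were at 0, and 2 were tested, of which 1 rose (limma). The summed linear level was 332 and 194 with forskolin, against 42.6 and 51.4 in controls. With 1 marker called, the sum does not show a rise of the list as a whole, and its part in these results was not tested.

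In mouse hepatocytes, with the columns read by their names, 0 of 12593 genes passed the test in either direction (0% up, 0% down, limma). None of the 9 members passed. Only 32 genes had an unadjusted p under 0.05 (limma), fewer than that threshold would pass if no gene changed. Fosl2 had 8.78 and 8.57 log2 in columns named forskolin, against 8.04 and 9.46 in columns named control. Fosb had 4.74 and 4.53 log2 in columns named forskolin, against 4.56 and 5.62 in columns named control. In both genes the highest of the 4 values stood in the second control column. The forskolin difference across 12593 genes was opposite in the 2 pairs, with a Pearson r of -0.56 across genes, which are not independent replicates.

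The authors' deposited table gave another result for hepatocytes, with 0.323% of 15492 genes up and 0.0452% down at an adjusted p under 0.05. There Fosb was called, with a log2 fold change of 0.79 (the authors' deposited table, adjusted p = 0.0154). Fosl2 had 0.79 in the authors' deposited table and missed the threshold (adjusted p = 0.0749), and Atf3 had 0.53 and Fos 0.36. Of 149 genes with an authors' log2 fold change of at least 0.5 in size, 149 had the same sign as the pair 1 difference and 0 had the same sign as the pair 2 difference. The header command orders the columns as control, forskolin, forskolin, control, and the library behind the third column is named there as 1 h of forskolin, while the labels give 2 h. In these 149 genes the authors' fold changes thus had the signs of the header order and not those of the column names in pair 2.

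Read in that header order, an alternative chosen after seeing the data, 0.0238% of 12597 genes rose, 0% fell and 0 of 9 members passed (limma). There 383 genes had an unadjusted p under 0.05 (limma). Fosl2 then stood at 8.78 and 9.46 log2 with forskolin, against 8.04 and 8.57 in controls, a difference of 0.81 ± 0.26 (SE, limma, adjusted p = 1.00). Fosb stood at 4.74 and 5.62 log2 with forskolin, against 4.56 and 4.53 in controls, a difference of 0.63 ± 0.26 (SE, limma, adjusted p = 1.00). Each of these genes had both forskolin values above both controls under that order. With the replicate number as a block in that order, 4 of 9 members passed upwards (Fosl2, Fosb, Atf3 and Fos) and 1 downwards (Junb), against 3.14% of genes up and 1.80% down (limma). Jun stood between 8.66 and 8.80 log2 in all 4 columns, with a difference of 0.03 ± 0.10 as named and -0.08 ± 0.09 in header order (SE, limma). Both orders give the first column as control and the second as forskolin, with 1 library each. Between these 2 columns the median difference was 0.11 log2 over the members and -0.00044 log2 over all genes. There 6 of 9 members were above 0, and the share of all genes above 0 was not computed. Whether the names or the header hold the true groups of the other 2 columns cannot be told apart from these sources, so no direction is drawn for hepatocytes.

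Of the lists around the family in hepatocytes, 0 genes passed with columns as named. In the authors' deposited table, 0 of 16 zipper partners and 0 of 19 upstream genes were called. Among the targets, Cxcl1, a neutrophil-attracting chemokine gene, had a log2 fold change of -1.27 (the authors' deposited table, adjusted p = 9.31e-06).

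Islets of CRTC2KO mice were compared in FPKM, which corrects for length and so lets genes be ranked, with 1 library per group and no replicate check. A gene was counted as past the fold when its log2 ratio, with 1 FPKM added to both values, was at least 1 in size. Intervals are 95% exact intervals on approximate read numbers and cover counting error only. They were computed for the members alone, so no share of all genes stands beside any count of intervals that exclude 1. With forskolin, 9 of 9 members were past the fold upwards in knockout islets, against 12.6% of 12525 genes up and 11.9% down. For wild-type islets of the same table the count was 8 of 9, against 9.85% up and 7.07% down. The median log2 ratio of genes with at least 10 FPKM was 0.20 in knockout and 0.13 in wild-type islets, and with libraries scaled by it 8 of 9 members were past the fold in each.

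Fos reached 169.8 FPKM in knockout islets with forskolin, against 2.25 FPKM without, a 75.5-fold difference with an interval of 50.9 to 120. In wild-type islets of that table it reached 329 FPKM with forskolin, against 5.09 FPKM without, a 64.5-fold difference (42.9 to 104). Fosl2 reached 109 FPKM in knockout islets with forskolin, against 3.20 FPKM without, a 34.0-fold difference (27.4 to 42.8). The libraries labelled knockout thus held large forskolin ratios for both FOS genes. In wild-type islets Fosl2 had 222 FPKM with forskolin, against 3.57 FPKM without, a 62.3-fold difference (45.9 to 85.3). Junb reached 316 FPKM in knockout islets with forskolin, against 13.2 FPKM without, and 449 FPKM in wild-type islets with forskolin, against 14.5 FPKM without. Jund had the smallest ratio of the members in both genotypes, 2.20-fold (1.76 to 2.73) in knockout and 1.96-fold (1.68 to 2.31) in wild-type islets.

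**Figure D2:**
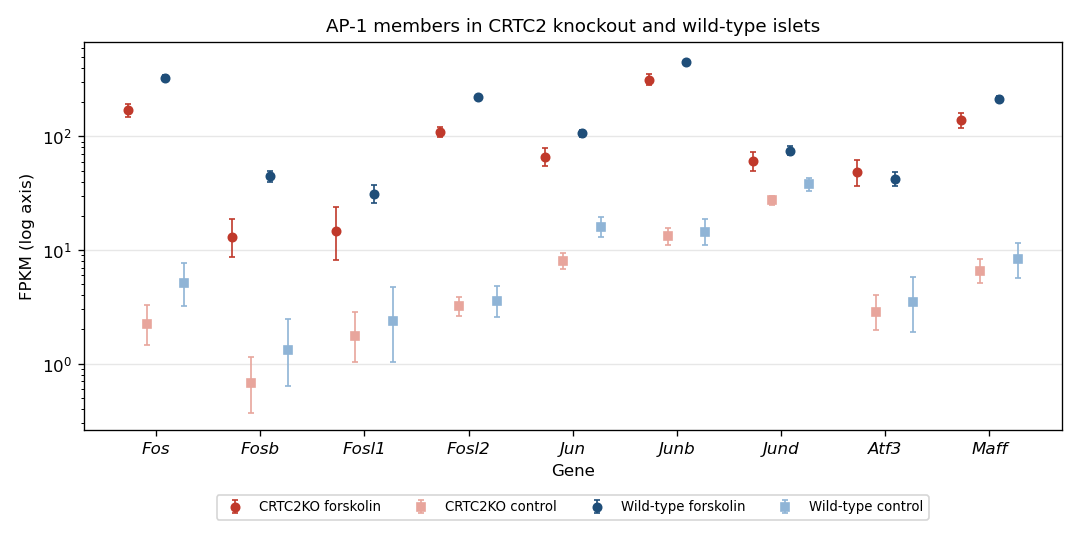
FPKM (y axis, log axis) of the 9 members in 1 library each of knockout and wild-type islets with and without forskolin; bars are 95% intervals from approximate read numbers and cover counting error only. Forskolin libraries (circles) lie above control libraries (squares) for all 9 members in both genotypes, and Fosb shows the widest gap between the 2 forskolin libraries, 13.0 against 44.4 FPKM.

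Between genotypes with forskolin, 3 of 9 members were past the fold downwards in knockout islets and 0 upwards, against 9.74% of 12321 genes down and 10.2% up. Fosb had 13.0 FPKM in knockout islets with forskolin, against 44.4 FPKM in wild-type islets with forskolin, a ratio of 0.293 (0.194 to 0.430). Fosl1 had 14.6 FPKM in knockout, against 31.1 FPKM in wild-type islets, a ratio of 0.469 (0.261 to 0.825). Fosl2 had a ratio of 0.490 (0.438 to 0.545). With libraries scaled by the median ratio of genes, 1 member was past the fold, and Fosl2 and Fosl1, at log2 ratios of -1.02 and -1.04, lay close to it. Fos, at 0.517, Jun, at 0.616, Maff, at 0.650, and Junb, at 0.703, were lower in knockout islets without passing the fold. Atf3 was the exception, with 48.1 FPKM in knockout islets, against 42.3 FPKM in wild-type islets, and an interval of its ratio (0.830 to 1.54) that includes 1. These intervals do not cover the spread between wild-type libraries. In the replicated wild-type islets, the 2 forskolin libraries had 6.46 and 7.72 log2 for Fosb, on the shrunk scale. Fosl1 had 5.24 and 5.94 log2 in them, and Fosl2 10.18 and 10.87 log2. The wild-type columns used here were more like pair 2, where all 9 members had the larger forskolin difference. The genotype ratios were not tested against that spread.

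Without forskolin, 0 of 9 members were past the fold between genotypes, against 4.25% of 12223 genes up and 1.94% down in knockout islets. All 9 ratios were below 1, with a median log2 ratio of -0.29 over the members and -0.05 over all genes. The share of all genes with a ratio below 1 was not computed. For 3 of them, Fos, Jun and Jund, the counting interval excluded 1, with no share over all genes to set beside this. Fos had 2.25 FPKM in knockout islets, against 5.09 FPKM in wild-type islets, a ratio of 0.442 (0.239 to 0.813). Jun had 8.03 FPKM in knockout, against 16.0 FPKM in wild-type islets. With the control libraries taken into account, the forskolin log2 ratio was smaller in knockout than in wild-type islets for Fosb, 3.06 against 4.28, and for Fosl2, 4.71 against 5.61, while Fos differed little, 5.72 against 5.76. These differences have no replicates and were not tested.

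The knockout table's libraries also differed in markers of beta cells and of other cells. Beta cell markers summed to 1003730 FPKM in knockout islets with forskolin and 513101 FPKM without, against 884972 and 909240 FPKM in wild-type islets. With forskolin, 4 of 10 were past the fold upwards in knockout islets, against 12.6% of all genes. In wild-type islets 1 was past it upwards and 1 downwards, against 9.85% and 7.07%. Between genotypes 0 of 10 were past it, with or without forskolin. Hepatocyte markers summed to 5278 FPKM in knockout islets with forskolin, against 2063 FPKM in knockout islets without, and to 1607 and 1823 FPKM in wild-type islets. Marker by marker the genotypes differed more than these sums. Without forskolin, 9 of 12 were past the fold upwards in knockout against wild-type islets, against 4.25% of all genes, with a median log2 ratio of 2.12. With forskolin 10 of 12 were, against 10.2% of all genes, with a median of 4.49. Acinar markers summed to 1415 and 251 FPKM in knockout islets with and without forskolin, against 5288 and 2766 FPKM in wild-type islets, and heat shock genes summed to 313 and 84.9 FPKM, against 440 and 130 FPKM. Their part in the members' values was not tested. The forskolin differences of the wild-type columns had a Pearson r of 0.86 with those of islet pair 2 and 0.47 with those of pair 1 across 5602 genes, so they may not be independent of that pair and are not counted as a further replicate.

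Around the family, 5 of 12 zipper partners were past the fold upwards and 0 downwards with forskolin in knockout islets, against 12.6% and 11.9% of all genes. In wild-type islets 6 of 11 partners were past it upwards and 1 downwards, against 9.85% and 7.07% of all genes. Mafa, a large MAF that activates the insulin gene, had 142 FPKM in knockout islets with forskolin, against 26.1 FPKM without, and Mafk had 36.0 FPKM, against 7.67 FPKM. Of the targets, 7 of 19 were past the fold upwards and 1 downwards in knockout islets, against 12.6% and 11.9% of all genes. In wild-type islets 7 of 20 were past it upwards and 1 downwards, against 9.85% and 7.07% of all genes. Cdkn1a had 166 FPKM in knockout islets with forskolin, against 28.1 FPKM without, and 182 FPKM in wild-type islets with forskolin, against 23.9 FPKM without.

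In the second INS-1 experiment, 8 of 8 members were past the fold upwards with forskolin alone, against 5.23% of 9791 genes up and 4.44% down, again with 1 library per group. Fosl2 had 646 FPKM with forskolin, against 6.25 FPKM in the control, a 103-fold difference (67.9 to 173). Fos had 62.5 FPKM, against 0.977 FPKM, a 64.0-fold difference (29.6 to 178). Fosl1 had 14.3 FPKM, against 0.309 FPKM from about 2 reads, a ratio of 46.4 (12.5 to 390). Among the JUN genes, Junb had 520 FPKM with forskolin, against 25.6 FPKM, and Jund had 695 FPKM, against 136 FPKM. Jun had 13.1 FPKM with forskolin, against 4.42 FPKM, a 2.97-fold difference (2.16 to 4.11), although it did not pass the test in the replicated INS-1 libraries. Maff had 68.2 FPKM, against 3.91 FPKM, and Atf3 had 32.0 FPKM, against 2.95 FPKM. For Fosl2 and Fos the log2 ratios here, 6.48 and 5.01, exceeded the authors' log2 fold changes in the replicated INS-1 libraries, 2.67 and 3.63. Maff was alike in both, at 3.82 and 3.81.

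Per length, Jund was the highest member in the control library of that experiment, followed by Junb. Fosl2, Jun, Maff and Atf3 came next, at 6.25, 4.42, 3.91 and 2.95 FPKM, and the counting intervals of neighbours in that order overlapped. With forskolin the order was Jund, Fosl2 and Junb at the top, and Jun and Fosl1, at 13.1 and 14.3 FPKM, at the bottom with overlapping intervals. The endothelial markers summed to 26.9 FPKM with forskolin, against 0.363 FPKM in the control. Of the 6, 3 were at 0 with forskolin and 4 in the control, and only 1 reached 1 FPKM in either library. The sum thus does not show a rise of the list as a whole, and its part was not tested.

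The libraries with an inhibitor and forskolin were both set against the same forskolin library, and no library with an inhibitor but without forskolin was analysed here. With JQ1, 1 of 8 members was past the fold upwards and 1 downwards, against 8.24% of 9738 genes up and 7.77% down. Atf3 had 66.7 FPKM with JQ1 and forskolin, against 32.0 FPKM with forskolin alone, a ratio of 2.08 (1.78 to 2.44). Jun had 27.1 FPKM with JQ1, against 13.1 FPKM, a ratio of 2.07 (1.70 to 2.52) that fell just short of the fold on the log2 scale with 1 FPKM added, at 0.99. With a pseudocount of 0.1 or with scaling, 3 members were past the fold. Maff had 24.1 FPKM with JQ1, against 68.2 FPKM, a ratio of 0.353 (0.295 to 0.419). Junb and Jund were higher with JQ1, at ratios of 1.76 and 1.75, as was Fos, at 1.34. Fosl2, at 0.681, was lower, and the interval of Fosl1 (0.545 to 1.05) included 1. In all, 5 of 8 members had an interval above 1 and 2 had one below 1, with no share over all genes to set beside this. Heat shock genes summed to 711 FPKM with JQ1, against 401 FPKM with forskolin alone, and their part was not tested.

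With A-485, 1 of 8 members was past the fold upwards and 2 downwards, against 5.43% of 9811 genes up and 9.57% down. Junb had 1638 FPKM with A-485 and forskolin, against 520 FPKM with forskolin alone, a ratio of 3.15 (3.04 to 3.26), and was the only member above 1. Maff had 10.5 FPKM with A-485, against 68.2 FPKM, a ratio of 0.154 (0.124 to 0.189). Fosl1 had 6.46 FPKM with A-485, against 14.3 FPKM, a ratio of 0.450 (0.317 to 0.631). Members of 1 family thus moved in opposite directions in the same library. The ratios of Jund and Fosl2 were both 0.595, that of Jun was 0.658, that of Atf3 0.692 and that of Fos 0.820, each with an interval below 1. Fos with A-485 still stood at 51.3 FPKM, against 0.977 FPKM in the control without forskolin.

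**Figure D3:**
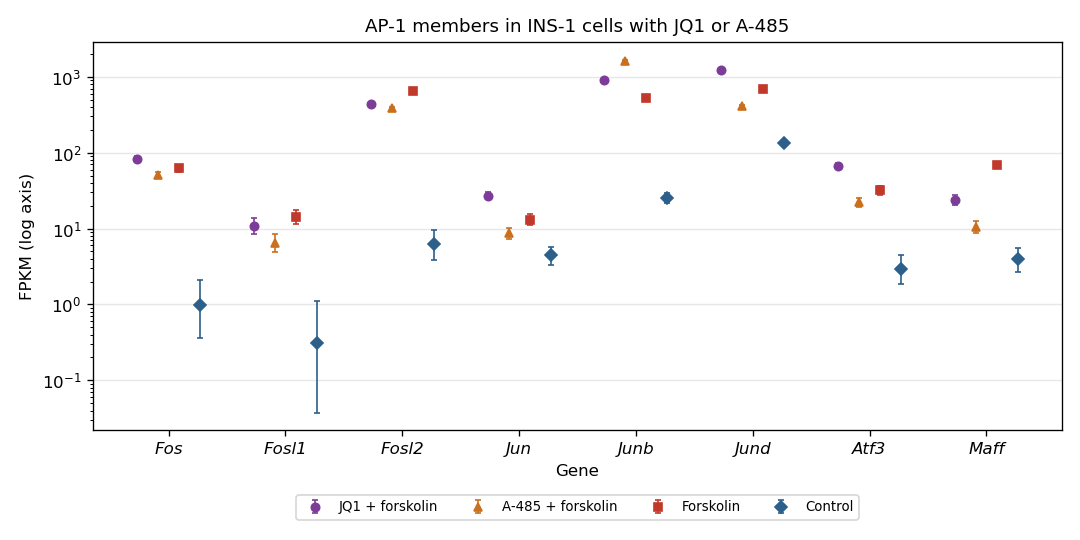
FPKM (y axis, log axis) of 8 members in 1 INS-1 library each with JQ1 and forskolin, A-485 and forskolin, forskolin alone, or neither; bars are 95% intervals from approximate read numbers and cover counting error only. Every member lies above the control in all libraries with forskolin, Maff is lower with both inhibitors (24.1 and 10.5 against 68.2 FPKM), and Junb is highest with A-485.

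Atf3, Jun, Jund and Maff were set side by side between the inhibitors, which differed in dose and in target and so are not compared. Atf3 had 66.7 FPKM with JQ1 and 22.2 FPKM with A-485, Jun 27.1 and 8.65 FPKM, Jund 1217 and 413.5 FPKM, and Maff 24.1 and 10.5 FPKM. Of the targets, 3 of 10 were past the fold upwards and 1 downwards with JQ1, against 8.24% and 7.77% of all genes. With A-485, 2 of 11 targets were past it upwards and 4 downwards, against 5.43% and 9.57% of all genes. Ccnd1 had 2.25 FPKM with JQ1 and 0.700 FPKM with A-485, against 33.3 FPKM with forskolin alone and 0.571 FPKM in the control. Hbegf had 43.9 FPKM with A-485, against 240.7 FPKM with forskolin alone. Penk, which encodes the opioid precursor proenkephalin, went the other way, with 42.7 FPKM with JQ1 and 67.0 FPKM with A-485, against 9.19 FPKM with forskolin alone. Cdkn1a had 309 FPKM with JQ1, against 65.2 FPKM with forskolin alone. Of 17 genes of the MAP kinase and SRF route, 2 were past the fold upwards with JQ1, against 8.24% of all genes. With A-485, 0 were, against 5.43% of all genes. The 2 with JQ1 include Srf, which encodes the serum response factor, at 87.3 FPKM against 22.6 FPKM with forskolin alone.

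In AR42J cells the forskolin ratios of the members were smaller. In cells carrying NeuroD1, 2 of 8 members were past the fold upwards with forskolin and 0 downwards, against 1.30% of 9937 genes up and 1.25% down. In cells carrying GFP, 1 of 8 was past it upwards and 0 downwards, against 1.16% of 9708 genes up and 0.721% down. The same 4 libraries serve in the comparisons between NeuroD1 and GFP. Of the 8 members, 3 reached 10 FPKM in any library of a comparison, and 0 of those were past the fold with forskolin in either line, so the forskolin calls below rest on low values.

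Maff had 5.89 FPKM with forskolin in cells carrying NeuroD1, against 1.94 FPKM without, a ratio of 3.03 (1.44 to 6.66). In cells carrying GFP it had 5.42 FPKM with forskolin, against 7.75 FPKM without, a ratio of 0.699 (0.444 to 1.11). Fosl2 had 27.9 FPKM with forskolin in cells carrying NeuroD1, against 14.8 FPKM without, a ratio of 1.88 (1.20 to 2.91), short of the fold. In cells carrying GFP it had 11.2 FPKM with forskolin, against 17.0 FPKM without, a ratio of 0.659 (0.405 to 1.07). The difference in forskolin response between NeuroD1 and GFP cells was 1.67 log2 for Maff and 1.43 log2 for Fosl2, with no replicates to test it.

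Junb showed the opposite order between the lines. It had 6.94 FPKM with forskolin in cells carrying NeuroD1, against 6.79 FPKM without, and 4.20 FPKM with forskolin in cells carrying GFP, against 1.34 FPKM without, a ratio of 3.15 (1.38 to 8.18). Fos rested on very few reads, with 2.38 FPKM from about 9 reads with forskolin in NeuroD1 cells, against 0.664 FPKM from about 3 reads without, and its interval (0.880 to 20.2) includes 1. In GFP cells it had 1.20 FPKM from about 6 reads with forskolin, against 0.191 FPKM from about 1 read. Jun and Jund, the best covered members here, were lower with forskolin in both lines. Jun had 27.7 FPKM with forskolin in NeuroD1 cells, against 40.3 FPKM without, a ratio of 0.688 (0.576 to 0.815), and 55.1 FPKM with forskolin in GFP cells, against 78.6 FPKM without, a ratio of 0.701 (0.628 to 0.781). Jund had a ratio of 0.781 (0.716 to 0.852) in NeuroD1 cells and 0.809 (0.756 to 0.866) in GFP cells.

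**Figure D4:**
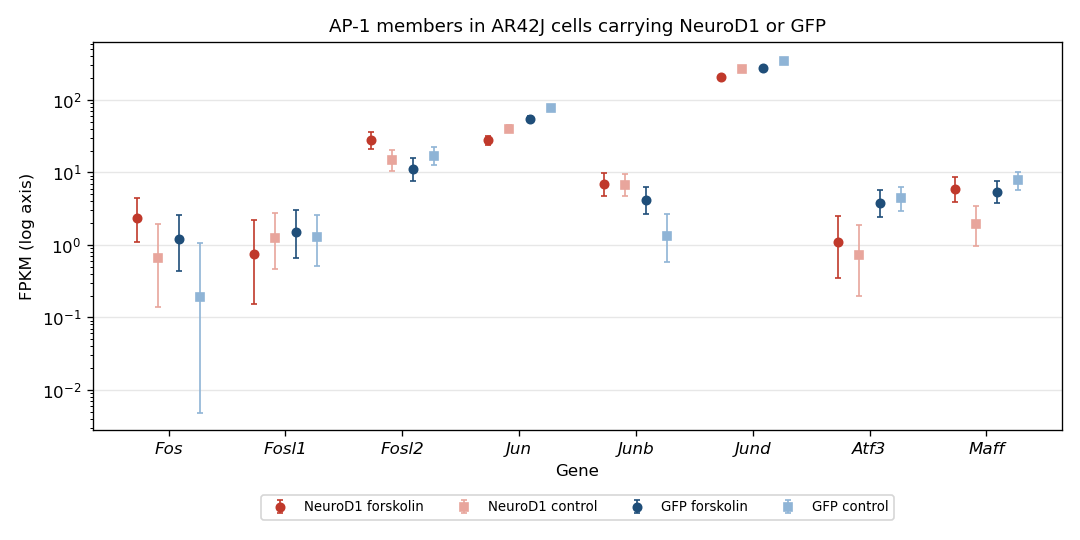
FPKM (y axis, log axis) of 8 members in 1 AR42J library each carrying NeuroD1 or GFP, with and without forskolin; bars are 95% intervals from approximate read numbers and cover counting error only. Jund is the highest member in all 4 libraries, Atf3 is lower in both NeuroD1 libraries than in both GFP libraries, and the intervals of Fos and Fosl1 are wide.

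Between the constructs, 1 of 7 kept members was past the fold upwards without forskolin and 2 were past it downwards, against 6.81% of 9956 genes up and 4.75% down. Junb had 6.79 FPKM in NeuroD1 cells, against 1.34 FPKM in GFP cells, a ratio of 5.08 (2.34 to 12.8). Maff had 1.94 FPKM in NeuroD1 cells, against 7.75 FPKM in GFP cells, a ratio of 0.251 (0.119 to 0.492). Atf3 had 0.728 FPKM from about 4 reads in NeuroD1 cells, against 4.38 FPKM in GFP cells, a ratio of 0.166 (0.0428 to 0.480). Fos was left out there because it stayed under 1 FPKM in both libraries. With forskolin, 1 of 8 members was past the fold upwards and 1 downwards, against 5.81% of 9940 genes up and 4.13% down. Fosl2 had 27.9 FPKM in NeuroD1 cells, against 11.2 FPKM in GFP cells, a ratio of 2.50 (1.56 to 3.99), and Atf3 had 1.08 FPKM, against 3.78 FPKM, a ratio of 0.287 (0.0841 to 0.762). Jun was lower in NeuroD1 cells with forskolin, at a ratio of 0.502 (0.426 to 0.589), and without it, at 0.512 (0.451 to 0.580), both just short of the fold. Acinar markers summed to 26938 and 24211 FPKM in NeuroD1 cells with and without forskolin, against 51566 and 47974 FPKM in GFP cells. Heat shock genes summed to 245 and 206 FPKM in NeuroD1 cells with and without forskolin, against 309 and 414 FPKM in GFP cells, and 3 of 7 were past the fold downwards without forskolin, against 0 of 6 with it. The part of either list in these values was not tested.

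Set beside INS-1 cells, from a table normalised separately, AR42J controls carrying GFP had more Jun, 78.6 FPKM against 4.42 FPKM, and less Junb, 1.34 FPKM against 25.6 FPKM. Jund was the highest member in both, at 341 and 136 FPKM. None of the 9 zipper partners kept in AR42J cells was past the fold with forskolin in either line. Of the targets, 2 of 6 were past the fold upwards in NeuroD1 cells and 1 of 7 in GFP cells, with 0 downwards in either. Of all genes, 1.30% were past it upwards and 1.25% downwards in NeuroD1 cells, and 1.16% and 0.721% in GFP cells. Hbegf had 10.3 FPKM with forskolin in NeuroD1 cells, against 4.33 FPKM without.

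The genes most like 4 of the members were ranked by Pearson r over the 8 libraries of the inhibitor and AR42J tables, on log2(FPKM + 1) centred within each table, among 8442 genes. These libraries share controls and forskolin treatment, and r is given as a description. Nr4a2, an orphan nuclear receptor gene, was most like Fos (r = 0.997), followed by Pim3 (0.980) and Coq10b (0.980). Nr4a2 had 61.7 FPKM with JQ1, 43.4 FPKM with A-485 and 47.3 FPKM with forskolin alone, against 2.41 FPKM in the INS-1 control. Csrnp1 (0.984), Klf4 (0.978) and Tox4 (0.974) were most like Fosl2. Klf4 had 49.3 FPKM with JQ1, 45.8 FPKM with A-485 and 96.2 FPKM with forskolin alone, against 2.21 FPKM in the control. RGD1562310 (0.992), Etv3 (0.978) and Ier2 (0.978) were most like Junb, and Usp7 (0.991), Cs (0.985) and Slc25a3 (0.985) were most like Atf3. The Atf3 set moved far less than Atf3 itself, with Usp7 at 118.6 FPKM with JQ1 and forskolin, against 103 FPKM with forskolin alone.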

How the data were processed

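Directional RNA-seq libraries were analysed from the tables deposited by the authors. For the 3 tables with replicates, exon reads were counted with HOMER on mm10 or rn6, per the file headers, and the authors deposited regularised log2 values. Log2 fold changes and p-values, raw and adjusted, computed by the authors stand beside them, per the file headers. The submitters' processing notes also name TopHat2 2.0.9, STAR and DESeq2. The other 3 tables hold deposited FPKM values of single libraries, a unit read from the values and gene lengths. Gene length is a further deposited column.

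The log2 columns were tested as named with limma 3.58.1 (R 4.3.3; variance trend, two-sided, Benjamini-Hochberg over all genes with a group mean of at least 1, called at adjusted p under 0.05). The fit was tested on simulated data. FPKM ratios were taken after adding 1, among genes with at least 1 FPKM in the higher library, and past the fold means a log2 ratio of at least 1 in size. Reads behind FPKM were estimated from the step between low values, of which 68.9 to 84.9% lay within 0.15 of a whole read, so they are approximate. Ratio intervals are 95% exact (Clopper-Pearson, SciPy 1.17.1). Promoters came from RefSeq GRCr8.

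All members are described. From each list, up to 4 called genes are named per replicated comparison and up to 3 past the fold with at least 10 FPKM elsewhere. The members and lists were chosen with earlier results of these data known. Alternatives covered the filter, the variance trend, quantile normalisation, the pseudocount, scaling, the replicate block, the authors' calls and each library left out. Some sequences, rows and 1 called target gene are not reported here.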

Additional observations from a re-analysis of the deposited data

Results flagged for a closer look

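The forskolin log2 ratios of several members had opposite signs in different cells. None of these differences was tested, because the tables were normalised separately or held 1 library per group, and most of the lower values are not changes in their own right.

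Fosl2, with 6.48 in INS-1 cells of the inhibitor experiment and -0.56 in AR42J cells carrying GFP, differed most, by 7.04 in the forskolin log2 ratio. Maff differed by 4.26 between the same cells, Atf3 by 3.24, Jund by 2.65 and Jun by 1.89. In AR42J cells carrying GFP the counting intervals of the forskolin ratio included 1 for Fosl2 (0.405 to 1.07), Maff (0.444 to 1.11) and Atf3 (0.479 to 1.57), and 0 of 8 members were past the fold downwards. Reads behind Atf3 there numbered about 23 with forskolin and 28 without. The intervals of Jun (0.628 to 0.781) and Jund (0.756 to 0.866) lay below 1. On the INS-1 side all of these differences rest on the single libraries of the inhibitor experiment. Fosl2 rose by less in the replicated INS-1 libraries, by 2.59 log2 (limma) and by 2.67 in the authors' deposited table. For Maff, Atf3 and Jund the authors' log2 fold changes were 3.81, 2.88 and 1.79, against single-library ratios of 3.82, 3.06 and 2.35. In the replicated INS-1 libraries Jun had 5.13 and 5.03 log2 with forskolin, against 4.94 and 5.06 in controls, so the groups overlapped and Jun did not pass the test (limma, adjusted p = 0.775).

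Within AR42J cells, the forskolin log2 ratio was higher with NeuroD1 than with GFP by 1.67 for Maff, by 1.43 for Fosl2 and by 0.44 for Atf3, and for Fosl1 the difference was -0.52. Atf3 with NeuroD1 and Fosl1 rested on fewer than 10 reads in each library, and the intervals of the forskolin ratio of Atf3 and of Fosl1 included 1 in both lines.

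The log2 change of Fosl1 differed by 1.51 between islets and hepatocytes and by 0.93 between INS-1 cells and hepatocytes, with the hepatocyte columns read by their names. Fosl1 rose in islets and in INS-1 cells, but its hepatocyte change was -0.05, within its SE of 0.07, and no direction is drawn for it. In header order the hepatocyte values of Fosl1 were 4.842 and 4.863 log2 with forskolin, against 4.928 and 4.855 in controls, and the groups overlapped.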

How the results depend on the processing

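In islets and INS-1 cells every called member kept its direction under every alternative that tested it. Fosl1 was not tested in INS-1 cells with a group mean of at least 5, where 7 members rose. Calls were lost without a variance trend, where 4 of 8 islet members and 6 of 8 INS-1 members remained called. Jun in islets also lost its call with no filter on low values (limma, adjusted p = 0.0513) and, as given above, without either control library. Over all genes in islets, a replicate block gave 667 up and 120 down, the authors' deposited values 483 up and 63 down, and 18 fell with no filter, 56 with a group mean of at least 5 and 12 without a variance trend, and 114 to 1879 rose and 7 to 961 fell with 1 library left out. Jund ranged from -0.10 to 0.66 there, below 0 without forskolin 2. In INS-1 cells a replicate block gave 774 up and 691 down, a fit without a variance trend 193 up and 32 down, and 197 to 366 rose and 36 to 147 fell with 1 library left out. The replicate block ended no member's call. The labels do not say that the numbers pair libraries, and deviations of same-numbered libraries correlated at -0.05 in islets, 0.44 in INS-1 cells and 0.40 in hepatocytes.

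Hepatocyte results turned on the column order. In header order 3 genes rose. Adding a replicate block to that order gave 395 up and 227 down, including 4 members up (Fosl2, Fosb, Atf3 and Fos) and 1 down (Junb, -0.19). The authors' deposited table had 50 up and 7 down, with 1 member up. Log2 changes opposite to those as named, in header order (with or without the block) and in the authors' deposited table, were 0.81 and 0.79 for Fosl2, 0.63 and 0.79 for Fosb, 0.39 and 0.53 for Atf3, 0.27 and 0.36 for Fos, 0.13 and 0.19 for Jund, and -0.0762 and -0.11 for Jun. With 1 library left out, 0 to 4 genes rose, and the ranges were -0.78 to 0.64 for Fosl2, -0.99 to 0.0708 for Fosb, -0.52 to 0.21 for Atf3, -0.485 to 0.16 for Fos, -0.0868 to 0.0437 for Jund, -0.0333 to 0.10 for Jun, -0.48 to 0.24 for Junb and -0.13 to 0.22 for Maff. Beyond the column order, the cause was not tested.

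For the FPKM tables, a pseudocount of 5 left 1017 genes past the fold for forskolin in knockout islets, 758 in the wild-type islets, 669 and 183 between genotypes with and without forskolin, 435 for forskolin in INS-1 cells, 694 with JQ1, 721 with A-485, 43 and 33 for forskolin with NeuroD1 and GFP, and 384 and 466 between constructs with and without forskolin. At least 10 FPKM in the higher library left, in the same order, 1246, 1048, 821, 271, 599, 1024, 928, 55, 42, 553 and 636, by testing fewer genes. A pseudocount of 0.1 gave 1396 between genotypes without forskolin, and 474 and 365 for forskolin with NeuroD1 and GFP. Members past the fold moved to 1 between genotypes with forskolin with a pseudocount of 5 or with scaling, to 1 without forskolin and 2 for forskolin with GFP with a pseudocount of 0.1, and to 1 with JQ1 with a pseudocount of 5. In AR42J cells a pseudocount of 5 or the minimum of 10 FPKM left 0 members for forskolin with NeuroD1 or GFP, 0 between constructs without forskolin and 1 with it. No member past the fold changed sign under any of these. Depth limits Fos, Fosl1 and Atf3 in AR42J cells most.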
